A study of Mus musculus with 31 samples.

Results

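The long noncoding RNAs Malat1, Meg3, Miat and Snhg11 were examined across all 31 brain arrays of a mouse study of acute lung injury. Their probes were taken as every row of the scanner output whose gene name is one of the 4 symbols. This found 3 of the 4 genes, of 25193 gene names kept, with 6 probes of 35487: 1 for Malat1, 3 for Meg3 and 2 for Snhg11. No probe carried the name Miat (an RNA also called Gomafu), so Miat was not analysed here. All 6 probes were well above background and passed the filter on dim spots. The genes were chosen with the comparison at 1.5 h in view, where the Malat1 probe was among those with the smallest unadjusted p-values. Values at 1.5 h are therefore given as a description, with no test.

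The mice were 31 female C57BL/6 animals of 6 weeks, injected in the tail vein under xylazine and ketamine anaesthesia, so that anaesthesia and injection are common to every group. Controls received physiological serum (14 mice) and treated animals received 1.2 µl of oleic acid, a fatty acid that injures the lung, for each g they weighed (17 mice). Brains were collected at 1 h and 1.5 h (3 serum and 3 oleic acid mice each), at 3 h and 4 h (2 and 3), at 18 h (2 and 2) and at 24 h (2 and 3). Each array holds the Cy3-labelled RNA of 1 brain on a 1-colour Agilent chip. Levels are log2 signals minus the 75th percentile of the same array, and differences are oleic acid minus serum on that log2 scale. Because brain tissue and not separate cell types was measured, fewer cells of a type and less RNA per cell cannot be told apart. A total RNA extract does not place an RNA in the nucleus.

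Malat1 is an abundant, mostly unspliced RNA of nuclear speckles, the bodies in which splicing factors collect. Its 3′ end is cut by RNase P, which also frees a small tRNA-like RNA, and that end then folds into a triple helix in place of a poly(A) tail. Meg3 is expressed from the maternal copy of the imprinted Dlk1-Dio3 locus and is strongly expressed in neurons. Snhg11 is a spliced host transcript of small nucleolar RNAs that is found mainly in brain. Miat, a neuronal nuclear RNA, is known for binding splicing factors.

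Time after injection largely followed the slide: all arrays of 1 h lay on 1 slide, and at 18 h each treatment lay on a slide of its own, so that slide and treatment cannot be told apart there. Markers of brain were high throughout, with the summed level of 10 neuronal markers at 359 to 510 times the 75th percentile of the array and that of 7 oligodendrocyte markers at 295 to 499.6. The summed level of 9 cerebellar markers ran from 9.71 to 116, and that of 6 anterior pituitary markers from 10.52 to 219. The array of oleic acid mouse 3 at 1 h and that of oleic acid mouse 2 at 4 h stood apart for several of the probes below, and results that rest on them are also given without them. The first of these arrays was also the dimmest, with a 75th percentile of 306 intensity units against 334 to 813 on the others and 54.3% of spots well above background against 56.3% to 76.3%.

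Sequences of 60-base probes are shown because the findings turn on where along its RNA a probe lies. Positions are those of the array annotation (build mm9) and sequences run 5′ to 3′. Capitals mark bases shared with a partly overlapping probe of the locus, leaving aside a probe of identical sequence. The Malat1 probe lies at chr19:5795713-5795772 on the minus strand, near the 3′ end of the locus that the array annotation calls NEAT2 (chr19:5795689-5802671, 6983 bases), an older name of Malat1. Of the 3 Meg3 probes, called upstream, middle and downstream by their order on the plus strand, the array annotation assigns the middle one to another Meg3 transcript than the others. The middle one lies at chr12:110799558-110799617 and the downstream one at chr12:110809678-110809737. The Snhg11 probes lie at chr2:158206508-158206567 (upstream) and chr2:158211554-158211613 (downstream).
Malat1, A_55_P2021187: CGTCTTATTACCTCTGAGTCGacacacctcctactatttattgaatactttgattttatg
Meg3 middle, A_52_P196568: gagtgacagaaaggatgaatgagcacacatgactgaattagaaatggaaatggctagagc
Meg3 downstream, A_51_P455997: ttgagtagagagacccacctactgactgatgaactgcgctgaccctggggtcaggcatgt
Snhg11 upstream, A_55_P2047809: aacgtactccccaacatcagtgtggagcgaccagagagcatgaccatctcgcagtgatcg
Snhg11 downstream, A_51_P267933: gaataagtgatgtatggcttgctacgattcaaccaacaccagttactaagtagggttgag

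Across the 5 times other than 1.5 h, no probe of Malat1, Meg3 or Snhg11 passed the test of oleic acid against serum (limma, Benjamini-Hochberg adjusted over 35487 probes, threshold 0.05). The background was as low: 0% of all probes passed at 1, 3, 18 and 24 h, 0.00282% at 4 h (1 probe), 0% for the mean over the 5 times and 0% for the difference between them. At an unadjusted p under 0.05 there were 1836, 1653, 1179, 2404 and 2262 probes at 1, 3, 4, 18 and 24 h, 1203 for the mean and 1830 for the difference between times. For changes with time, 8.94% of all probes passed in the serum mice and 6.1% in the oleic acid mice, and 0 of the 6 probes did in either. These counts do not show that the levels were alike.

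Malat1 had its highest group mean in the serum mice at 1.5 h and one of its lowest in the oleic acid mice of the same time. At 1.5 h the serum arrays stood at 2.20, 2.57 and 2.30 and the oleic acid arrays at 1.36, 1.30 and 1.52. All 3 treated arrays lay below all 3 controls, as groups did without overlap for 10.7% of all probes at that time. The difference was -0.97 ± 0.21 (standard error), which is 1.96-fold lower after oleic acid. It ran from -1.05 to -0.863 when any one array was left out. On the only slide that held both treatments at 1.5 h, with 1 array of each, it was -0.94. That slide was scanned on another date than the other 4. The remaining serum arrays of 1.5 h lay on a slide with the 1 h arrays and the remaining oleic acid arrays on a slide with 3 h arrays, so that outside the shared slide, slide and treatment cannot be told apart at this time.

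At the other times the Malat1 arrays of both treatments overlapped. At 1 h the serum arrays read 2.09, 2.11 and 1.52 against 1.79, 2.02 and 1.79 after oleic acid. At 3 h they read 1.66 and 1.94 against 1.86, 1.88 and 2.45. By 4 h they read 1.82 and 2.31 against 1.52, 1.59 and 1.94. The difference was 0.26 ± 0.23 at 3 h (adjusted p = 0.955 by limma) and -0.38 ± 0.23 at 4 h (adjusted p = 0.995 by limma), of opposite sign and with overlapping arrays at both times. At the late times the arrays of both treatments lay at or below 1.74. At 18 h the serum arrays read 1.51 and 1.55 and the oleic acid arrays 1.36 and 1.61. At 24 h they read 1.61 and 1.13 against 1.41, 1.74 and 0.96. Averaged over the 5 times other than 1.5 h the difference was -0.04 ± 0.105, and the test that it varied between those times gave an adjusted p of 0.811 (limma).

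**Figure D1:**
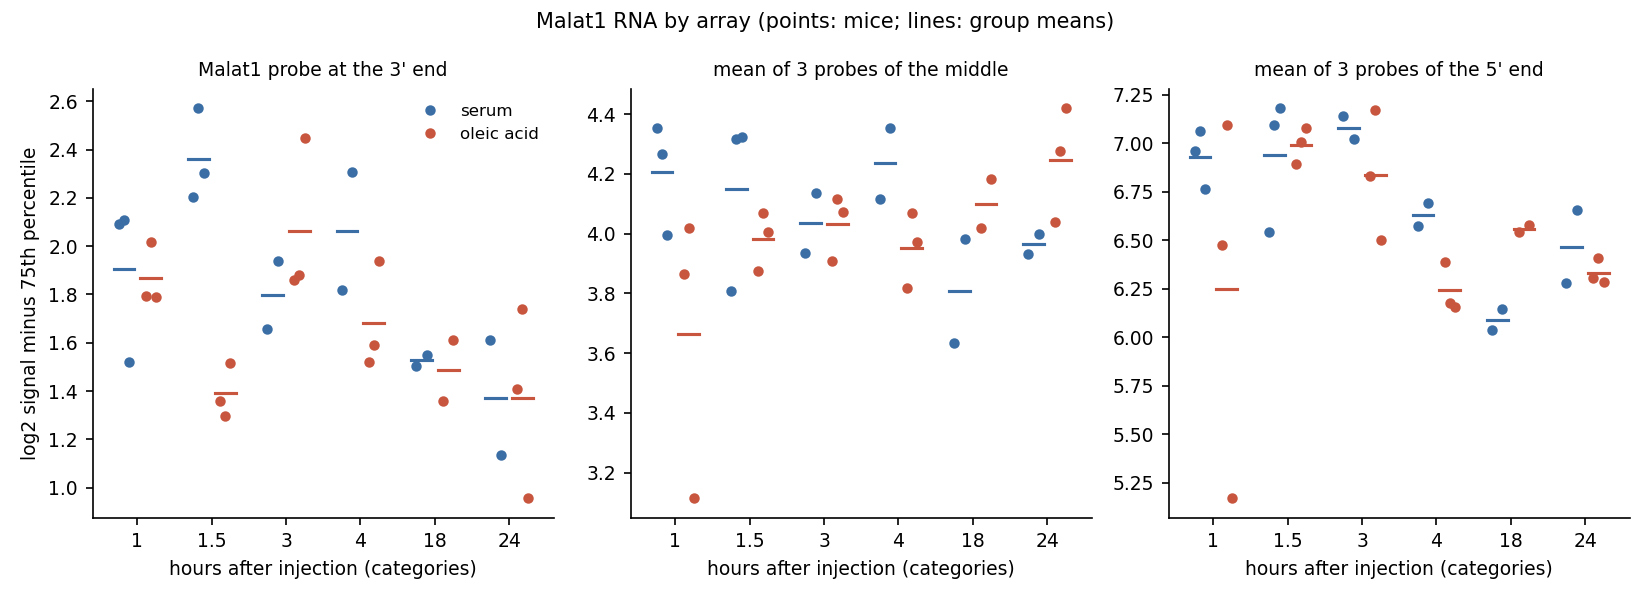
Malat1 signal (log2 minus the 75th percentile of the array) on each of the 31 arrays by hours after injection, with serum and oleic acid mice marked separately and a line at each group mean, for the Malat1 probe at the 3′ end and for the means of the 3 middle and the 3 5′ end probes. In the first panel the 3 oleic acid arrays at 1.5 h, at 1.30 to 1.52, lie below the 3 serum arrays at 2.20 to 2.57, and the arrays of the other times overlap.

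Ordered by group mean, Malat1 ran from 2.36 ± 0.19 (SD, n = 3) in serum at 1.5 h, through 2.06 ± 0.35 (n = 2) in serum at 4 h and 2.06 ± 0.33 (n = 3) after oleic acid at 3 h, to 1.37 ± 0.34 (n = 2) in serum and 1.37 ± 0.39 (n = 3) after oleic acid at 24 h. The oleic acid mice of 1.5 h, at 1.39 ± 0.11 (n = 3), lay just above these and below both 18 h groups. Every one of the 11 neighbouring pairs in this order overlapped. The change with time in the serum mice just missed the threshold (adjusted p = 0.0514, limma), and that in the oleic acid mice missed it too (adjusted p = 0.119). The serum value depended on the arrays of 1.5 h, whose contrast chose the gene: without them it was 0.220. With the slide as a block it was 0.282. Without the 4 arrays lowest in the cerebellar marker Gabra6 it was 0.0981, and without the 3 highest in the pituitary hormone gene Prl it was 0.104. The 1.5 h difference was -0.921 and -0.969 in those settings.

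The array holds 13 further probes within the Malat1 locus under other names (NEAT2 or genomic intervals). They were gathered after the Malat1 values were seen, are not among the 6 probes, and measure the RNA in the same extracts, so their 1.5 h values carry no test. A probe of identical sequence, A_30_P01019221, tracked the Malat1 probe and was slightly brighter. The Malat1 probe minus this probe was -0.107 on average (SD 0.0959 over 31 arrays), which is the reproducibility of 1 sequence spotted at separate places. The next probe toward the 5′ end shares 21 bases with the Malat1 probe and 39 with its other neighbour. It is printed with a probe from the 5′ end of the RNA, since these ends gave different results.
Overlapping 3′ probe, A_30_P01028538: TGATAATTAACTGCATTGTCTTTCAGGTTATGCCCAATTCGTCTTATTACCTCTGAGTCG
5′ end probe, A_30_P01031754: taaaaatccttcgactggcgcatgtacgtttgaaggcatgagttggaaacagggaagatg

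The 3′ probes were the dimmest on the Malat1 strand, with mean levels over the arrays of 1.37 to 2.13. The middle probes had means of 3.27 to 4.86 and the 5′ end probes of 5.39 to 8.16. At 1.5 h the treatments separated with the probes at the 3′ end of the Malat1 locus and overlapped with the others. The 4 other 3′ probes gave -0.93, -0.96, -0.95 and -0.88, each with its oleic acid arrays below its serum arrays. The 3 probes of the middle (chr19:5798256-5798620) gave -0.09, -0.12 and -0.29. The 3 probes of the 5′ end (chr19:5802130-5802326) gave -0.03, 0.07 and 0.13. In these 6 probes the treatments overlapped at 1.5 h. Probes for the opposite strand (chr19:5797234-5797447) gave 0.55, 0.52 and 0.34, again with overlap. With the slide as a block the median was -0.914 at the 3′ end, -0.468 in the middle (from -0.12) and -0.278 at the 5′ end (from 0.07). These block values rest on 1 serum and 1 oleic acid array, those of the shared slide that was scanned on another date. In them the sign at the 5′ end turned and the contrast between stretches narrowed.

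Time in the serum mice was considered for the same 3′ probes, as a description. The serum arrays of 1.5 h, whose contrast chose the gene, enter this test, so a value under the threshold is no support. Among them, A_30_P01020325 and A_30_P01028538 fell under the threshold for time in the serum mice (adjusted p = 0.0296 and 0.0417, limma), as did 8.94% of all probes. The other 3 did not, at 0.0514, 0.0791 and 0.0977. None of the 5 passed with the slide as a fixed block (adjusted p of 0.241 to 0.556) or without the 1.5 h arrays (0.220 to 0.574). The 3 probes of the 5′ end did not pass (0.171 to 0.222). Without the 2 arrays that stood apart they did (0.0195 to 0.0344), as did 5284 of all 35487 probes.

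**Figure D2:**
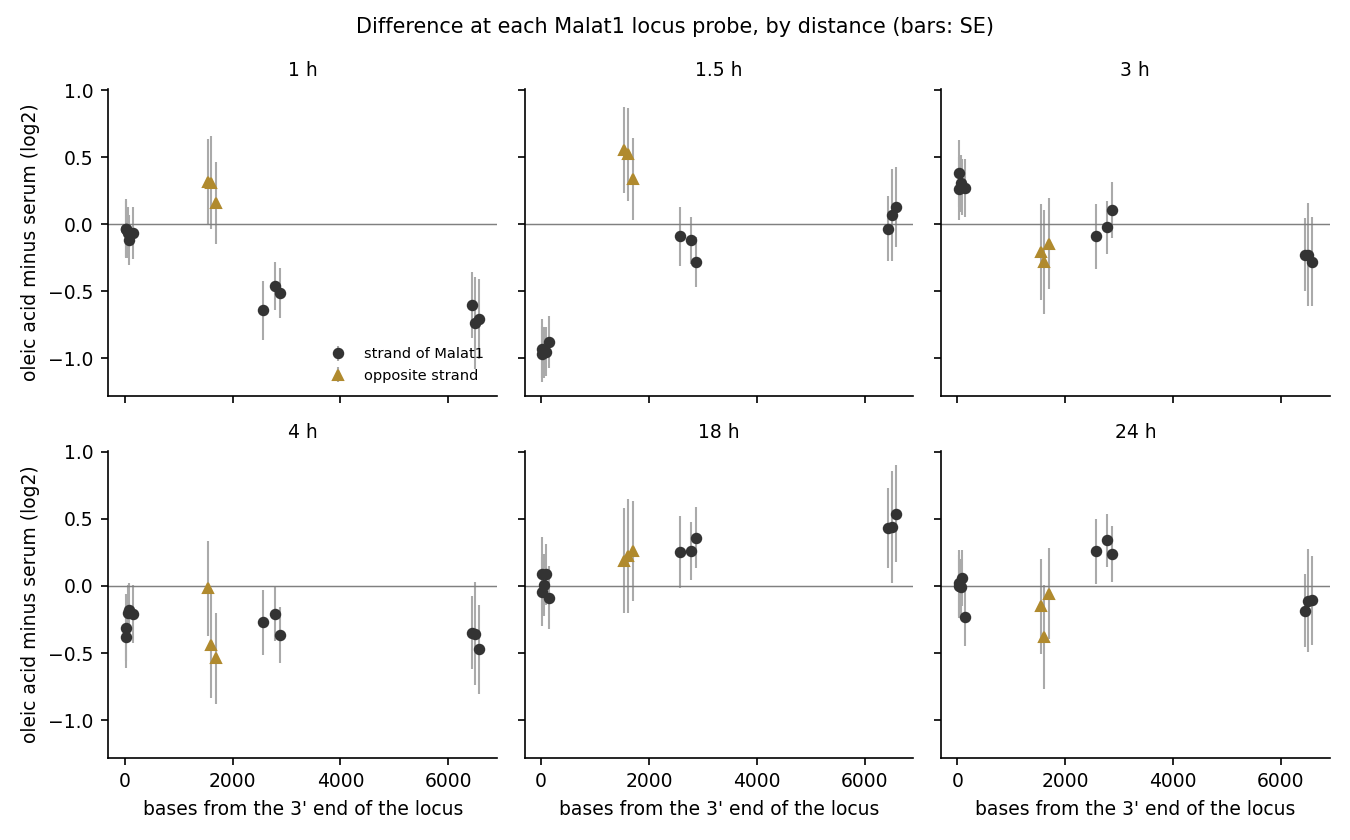
Oleic acid minus serum (log2, points with standard errors) for the probes of the Malat1 locus by distance from its 3′ end in bases, in 1 panel for each time, with sense and opposite-strand probes marked. At 1.5 h the 5 probes at the 3′ end lie near -0.9 and the 6 sense probes farther along lie between -0.29 and 0.13.

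At 1 h the larger differences lay away from the 3′ end. The middle probes had differences of -0.46 to -0.64 and the 5′ probes of -0.61 to -0.74, while the 3′ probes ran from -0.12 to -0.03. None of these passed the test (adjusted p = 0.894, limma). Much of them came from 1 array: oleic acid mouse 3 read 6.98, 3.72 and 4.81 with the 5′ probes, the lowest value of all 31 arrays for each. Without it the middle probes had -0.29 to -0.24 and the 5′ probes -0.17 to -0.10.

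Over the 31 arrays, probes of the same stretch of Malat1 varied together and probes of different ends did not. These correlations are descriptions over arrays that share slides and time points. The 5 probes of the 3′ end correlated with each other at r = 0.94 to 0.98, the 3 of the 5′ end at 0.93 to 0.97 and the 3 of the middle at 0.84 to 0.88. Between the 3′ and the 5′ end r was 0.12 to 0.29, and between the 3′ end and the middle 0.03 to 0.21. The 5′ end and the middle stood nearer to each other over all arrays, at 0.38 to 0.71. Without the 2 arrays that stood apart they had 0.06 to 0.54, against 0.21 to 0.39 between the 3′ and the 5′ end. That nearness thus rested on those arrays. A reading of Malat1 on this array thus depended on the stretch probed.

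Meg3 showed no difference between treatments that passed the test, and its 3 probes did not follow one another over all arrays. Between probes, r over the 31 arrays ran from -0.51 (downstream and middle) to 0.33 (upstream and middle). Without the 2 arrays that stood apart r ran from -0.51 to 0.54, and after subtracting slide means from -0.35 to 0.06. The downstream probe, the brightest, stayed within 6.45 and 7.33 on all arrays, and its SD over arrays (0.221) was at the 31.6th percentile of all probes. Its largest mean was 7.11 ± 0.22 (SD, n = 3) after oleic acid at 4 h and its smallest 6.56 ± 0.11 (n = 3) in serum at 1 h. At 1 h it read 6.67, 6.55 and 6.45 in serum and 6.73, 6.59 and 7.23 after oleic acid. The groups overlapped, with a difference of 0.30 ± 0.17 (adjusted p = 0.894, limma), and the highest of the 6 was again oleic acid mouse 3, without which it was 0.11. At the other times its differences ran from -0.16 to 0.13, each smaller than its standard error.

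The upstream Meg3 probe was as narrow, between 3.64 and 4.75. At 3 h it read 4.70 and 4.42 in serum and 4.55, 4.22 and 4.18 after oleic acid, a difference of -0.24 ± 0.19. At 1.5 h it read 4.17, 4.15 and 4.33 against 4.75, 4.30 and 4.21, a difference of 0.20 ± 0.17. The treatments overlapped at both times. At the other times its differences ran from -0.15 to 0.12, each smaller than its standard error.

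The middle Meg3 probe moved most, from 3.13 to 5.59, with an SD over arrays (0.550) at the 83.9th percentile of all probes. At 1 h the serum arrays read 5.28, 5.22 and 5.13 and the oleic acid arrays 5.26, 5.40 and 3.62. At 1.5 h they read 4.94, 5.36 and 5.59 against 5.49, 5.53 and 5.53. At 3 h they read 5.58 and 5.47 against 5.32, 5.56 and 5.02. Through 3 h the treatments overlapped, and a single oleic acid array at 1 h was low. At 4 h the serum arrays read 5.12 and 4.78 and the oleic acid arrays 4.70, 3.13 and 4.53. At 18 h they read 4.41 and 4.54 against 5.14 and 4.92. At 24 h they read 4.97 and 5.24 against 4.96, 4.93 and 4.77. The oleic acid arrays lay below the serum arrays at 4 h and 24 h and above them at 18 h, when 18.3%, 28.3% and 50.9% of all probes did not overlap at 4, 24 and 18 h.

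None of those differences of the middle Meg3 probe passed the test. It was -0.45 ± 0.36 at 1 h, -0.83 ± 0.40 at 4 h (adjusted p = 0.995, limma), 0.55 ± 0.44 at 18 h (adjusted p = 0.762) and -0.22 ± 0.40 at 24 h. At the early times these rested on single arrays. Without oleic acid mouse 3 the 1 h difference was 0.12, and without oleic acid mouse 2 the 4 h difference was -0.33. Without both arrays the change with time passed the test in the serum mice (adjusted p = 0.0105, limma) and in the oleic acid mice (0.0112). With all arrays these were 0.393 and 0.106. Both arrays are of oleic acid mice, so the serum values stayed the same while the spread estimated over all groups did not. More of all 35487 probes passed without them: 5284 in serum and 3559 in oleic acid mice, against 3172 and 2163 with all arrays.

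Snhg11 gave the same picture, with no difference that passed the test and a pair of probes that did not follow each other (r = -0.29 over the 31 arrays, and -0.16 without the 2 arrays that stood apart). At 1 h the upstream probe read 3.48, 3.37 and 3.43 in serum and 3.07, 3.43 and 2.30 after oleic acid. At 3 h it read 3.80 and 3.60 against 3.51, 3.42 and 3.04. At 18 h it read 3.12 and 2.85 against 3.27 and 3.24. The oleic acid arrays lay below the serum arrays at 3 h and above them at 18 h, times at which 18% and 50.9% of all probes did not overlap. The differences were -0.49 ± 0.21 at 1 h (unadjusted p = 0.032, adjusted p = 0.894, limma), -0.38 ± 0.24 at 3 h and 0.27 ± 0.26 at 18 h. Without oleic acid mouse 3 the 1 h difference was -0.18. The 18 h value turned to -0.237 with the slide as a block, and the 18 h groups share no slide. The test that the difference varied between the 5 times gave an adjusted p of 0.804 (limma).

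The downstream Snhg11 probe was brighter and narrower, between 5.91 and 6.81. At 4 h it read 6.17 and 6.73 in serum and 6.72, 6.35 and 6.81 after oleic acid. At 18 h it read 6.62 and 6.36 against 6.19 and 6.18. Its differences were 0.22 ± 0.16 at 1 h (0.07 without oleic acid mouse 3), 0.18 ± 0.17 at 4 h and -0.31 ± 0.19 at 18 h, when both oleic acid arrays lay below both serum arrays, as 50.9% of all probes did not overlap. Its change with time in the oleic acid mice did not pass (adjusted p = 0.170, limma). Without the 2 arrays that stood apart it did (0.0415), as did 3559 of all 35487 probes. The 4 h value was -0.0169 with arrays scaled on their median, a scaling that moved the median of all probes at that time from 0.02 to -0.18. For both genes all 11 neighbouring pairs in the order of the 12 group means overlapped, with each probe.

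**Figure D3:**
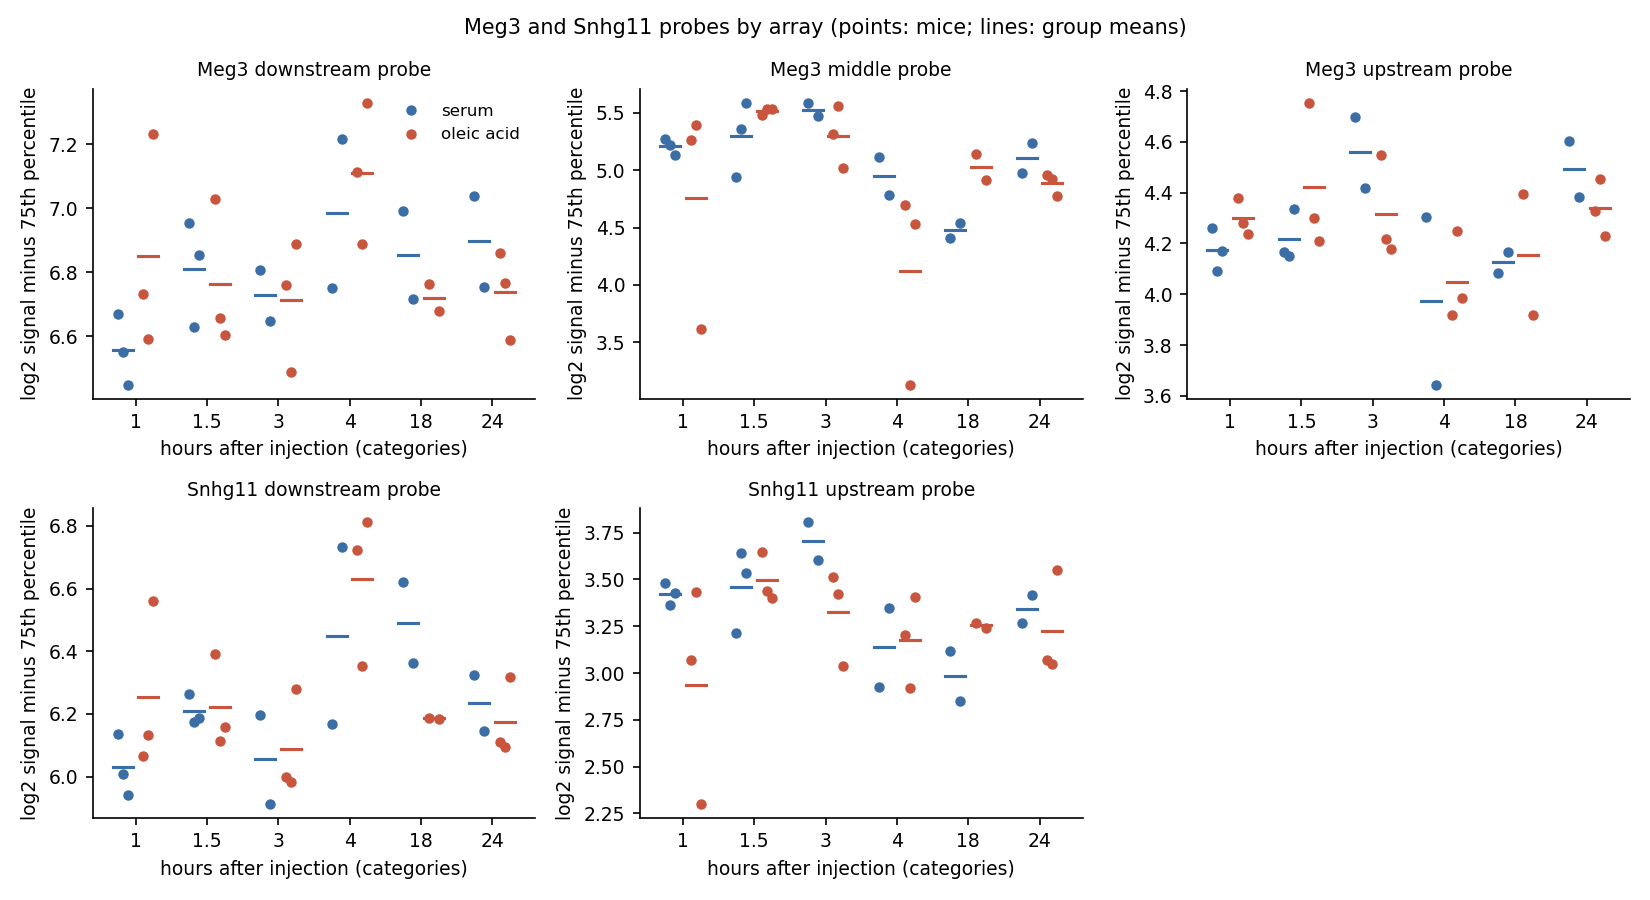
Signal of the 3 Meg3 and 2 Snhg11 probes (log2 minus the 75th percentile of the array) on each of the 31 arrays by hours after injection, serum and oleic acid mice marked separately with lines at group means. The middle Meg3 probe has low arrays at 1 h (3.62) and 4 h (3.13) after oleic acid, and the downstream probes of both genes stay in narrow bands.

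The downstream probes of Meg3 and Snhg11, which lie on different chromosomes, varied together over the arrays. Their correlation was r = 0.86 (Spearman rho 0.75, n = 31), 0.80 after subtracting slide means and 0.82 after subtracting group means. Both correlated with the mean of the neuronal markers, at r = 0.66 for Meg3 and 0.69 for Snhg11. The middle and upstream Meg3 probes (-0.22 and -0.25) and the upstream Snhg11 probe (-0.03) did not. Nor were the downstream probes tied to neuronal markers alone. They had r = 0.52 and 0.52 with microglial and -0.42 and -0.43 with cerebellar markers, and Meg3 had -0.47 with astrocyte markers. The part of cell content in these relations was not tested. The upstream Snhg11 probe and the middle Meg3 probe formed another pair, at r = 0.72, and both followed the 5′ end of Malat1 (0.78 to 0.83 and 0.81 to 0.83). Without the 2 arrays that stood apart, the highest r of any probe with that 5′ end was 0.71 for Snhg11 and 0.90 for Meg3. The upstream Meg3 probe followed the opposite strand of Malat1 instead, at 0.71 to 0.72. The Malat1 probe itself correlated with no Meg3 or Snhg11 probe beyond -0.28 and 0.13.

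**Figure D4:**
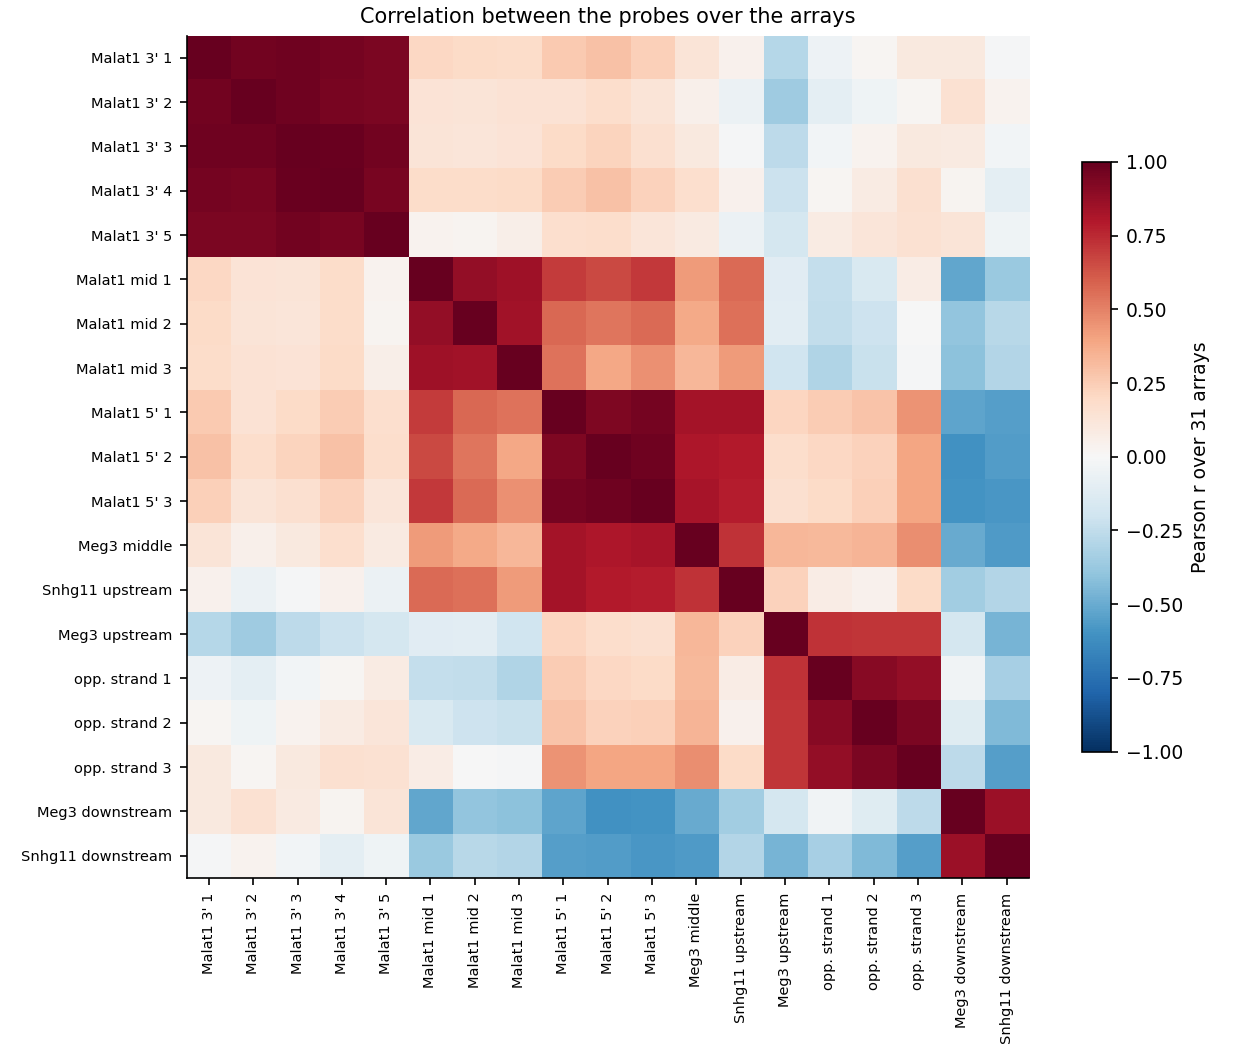
Pearson r over the 31 arrays between every pair of the 6 probes and the 13 further probes of the Malat1 locus, grouped by stretch, on a colour scale from -1 to 1. The 3′ probes of Malat1 form a block at 0.94 to 0.98 that is nearly unrelated to the 5′ block, and the 5′ block is joined to the middle Meg3 and upstream Snhg11 probes.

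Signal toward the 5′ and the 3′ end was also compared in other transcripts, a step added after the values were seen. For 1036 transcripts with 2 probes at least 2000 bases apart, the upstream minus downstream signal was centred per transcript, and its median was taken on each array. This index ran from -0.337, on the array of oleic acid mouse 3 at 1 h, to 0.300. It correlated over the 31 arrays with the upstream Snhg11 probe at r = 0.82, with the middle and upstream Meg3 probes at 0.63 and 0.56 and with the 5′ probes of Malat1 at 0.67 to 0.79 (0.55 to 0.73 without the 2 arrays that stood apart). With the 3′ probes of Malat1 it correlated at -0.16 to -0.04. The middle probes of Malat1 gave 0.29 to 0.42 (0.02 to 0.18 without those arrays). On the strand of Malat1 the correlation thus rose from the 3′ end through the middle to the 5′ end. The opposite-strand probes, placed between the 3′ end and the middle, gave 0.42 to 0.53 (0.65 to 0.72). The cause of this order was not tested. The difference between 5′ and 3′ Malat1 probes followed the index at r = 0.69 (0.58 without the 2 arrays that stood apart), and that between the Snhg11 probes at 0.78 (0.71).

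At 1.5 h the treatments overlapped in the index and not in Malat1. The index ran from -0.0717 to 0.212 in serum and from 0.0136 to 0.300 after oleic acid. The 5′ minus 3′ difference of Malat1 ran from -0.584 to 0.0582 in serum and from 0.648 to 0.772 after oleic acid. The contrast that chose the gene enters that second range, which is a description.

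**Figure D5:**
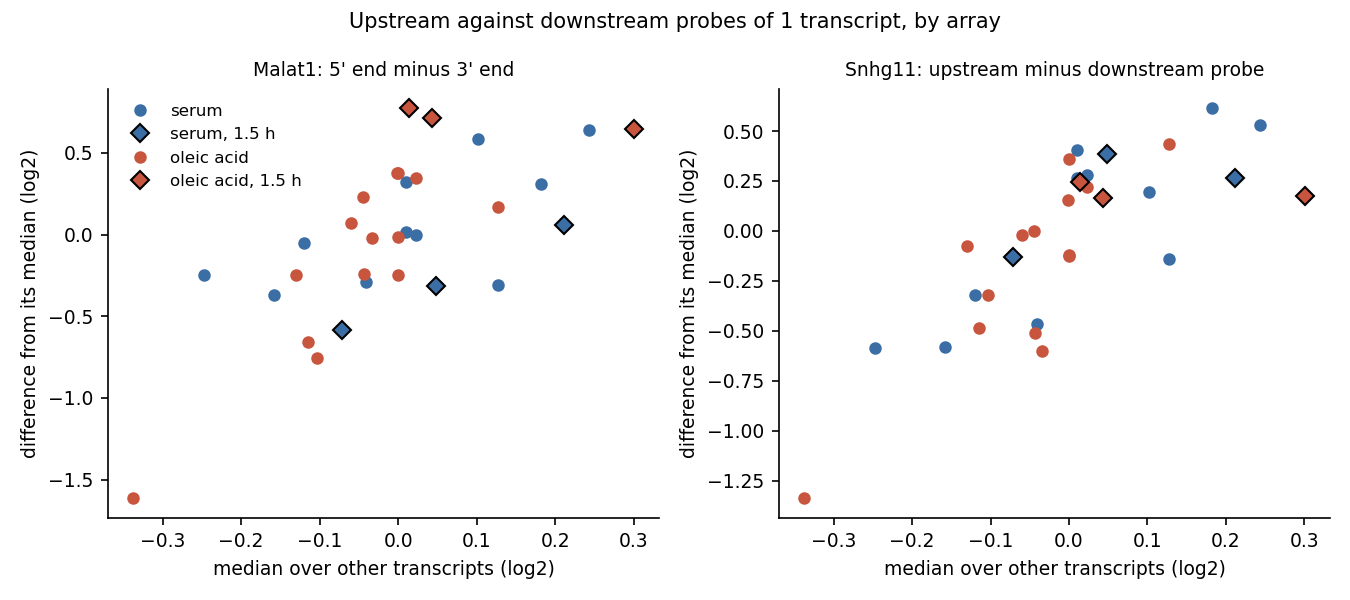
For each of the 31 arrays, the 5′ minus 3′ signal of Malat1 (log2, centred) and the upstream minus downstream signal of Snhg11 against the median upstream minus downstream signal of 1036 other transcripts (log2, centred), with serum and oleic acid mice marked and diamonds for 1.5 h. The measures go together (r = 0.69 and 0.78), the array of oleic acid mouse 3 at 1 h is the lowest on the horizontal axis, and the 3 oleic acid arrays of 1.5 h lie at 0.648 to 0.772 on the Malat1 axis.

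Cell markers did not separate the treatments at 1.5 h for the main brain cell types. Summed over 10 neuronal markers, the level was 388 to 464 times the 75th percentile in serum and 433 to 446 after oleic acid. The 7 astrocyte markers summed to 48.2 to 56.6 against 46.3 to 50.05, the 7 oligodendrocyte markers to 369 to 392 against 338 to 375, and the 7 microglial markers to 41.9 to 43.05 against 39.1 to 43.4. The 9 cerebellar markers, which vary with the region sampled, spanned 12.1 to 84.2 against 11.1 to 59.95. All of these ranges overlapped. The Malat1 probe correlated with the mean of the astrocyte markers at r = 0.41 and of the pituitary markers at -0.47, and with no other list beyond 0.35. The part of astrocyte content in its values was not tested.

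The genes whose signal was most like that of each RNA were sought among 14638 named genes, by Pearson r over the 31 arrays. For Malat1 these were Dusp1 (0.79), a phosphatase gene induced early by stress and neuronal activity, Med26 (0.77), Polr3e (0.75), a subunit of RNA polymerase III, Grm5 (0.75), a glutamate receptor, and Zfp955b (0.74). The lowest were Cnksr1 (-0.70), a very dim signal with a mean level of -5.61, and Acp2 (-0.67). At 1.5 h Dusp1 read 1.09, 1.28 and 1.21 in serum and 0.11, 0.42 and 0.39 after oleic acid. These groups did not overlap, as was so for 10.7% of all probes at that time. Dusp1 was picked for its likeness to Malat1 over arrays that include these, so its 1.5 h values are only a description. The likeness of Dusp1 to Malat1 was 0.73 after subtracting slide means and 0.53 after subtracting group means, so part of it lay between groups. After subtracting group means, Grm5 had rank 50 among the 14638 genes, Med26 rank 321 and Zfp955b rank 810. Dusp1 had rank 1229 and Polr3e rank 1973.

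The downstream Meg3 probe was most like Ubxn11 (0.96), Pou2f2 (0.94), Fcho1 (0.94), B4galnt1 (0.93) and Lrrc24 (0.93), and least like Asf1a (-0.87) and Prkd3 (-0.86). The downstream Snhg11 probe was most like Stab1 (0.93), Dync1h1 (0.93), the heavy chain of cytoplasmic dynein, Ip6k1 (0.92), Tbl3 (0.92) and Btbd6 (0.91), and least like Foxn3 (-0.92) and Plcxd3 (-0.88). These correlations were higher than any reached by Malat1. For Snhg11 they held at 0.84 to 0.89 after subtracting slide means.

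Related genes were compared in lists that were drawn up with earlier results of these data known. No gene of any list passed the test of oleic acid against serum at any of the 5 times. Of 35 other long noncoding RNAs, 15 were measured and 0 passed any test, including time (0% against 8.94% of all probes in serum and 6.1% in oleic acid mice, a gap of about 1 gene in a list of this size). Those with the highest mean signal were 2900097C17Rik, Peg13 and Neat1, the scaffold RNA of paraspeckles and neighbour of Malat1. In serum mice the mean of Neat1 was lowest at 3 h (2.60) and highest at 18 h (3.42), and in oleic acid mice it was lowest at 3 h (2.64) and highest at 18 h (3.38). Of 8 neighbours of Malat1 and of 5 measured genes of the Dlk1-Dio3 locus that holds Meg3 (of 7 listed), 0 passed any test, lists too short to read against those shares. The brightest of the latter were Begain, Mirg and Dlk1.

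Of 20 snoRNA host genes, the class of Snhg11, 11 were measured. With time, Snhg1 passed in serum (adjusted p = 0.0077) and in oleic acid mice (0.0048), and Nop56, a core protein gene of snoRNA particles, passed in oleic acid mice (0.0229, limma). Snhg1 was highest at 3 h (-0.68 in serum, -0.63 after oleic acid) and lowest at 24 h (-1.28 and -1.21). That is 9.09% of the measured hosts in serum, against 8.94% of all probes, and 18.2% after oleic acid, against 6.1%.

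Genes for proteins of nuclear speckles and paraspeckles, bodies of which the first hold Malat1, were measured for 28 of 29 listed. With time, 7 passed in serum mice (25% against 8.94% of all probes) and 4 in oleic acid mice (14.3% against 6.1%). The splicing factor gene Srsf6 had the smallest adjusted p (0.0064 in serum and 0.0029 after oleic acid, limma), followed by the splicing kinase gene Clk1 (0.0220 and 0.0333), Acin1 (0.0366 and 0.0263) and Srsf11 (0.0306 and 0.0476). In serum mice Srsf6 rose from 1.40 at 3 h to 2.32 at 18 h and Clk1 from 0.72 to 2.00. Over the same times Srsf11 fell from 3.48 to 1.66 and Acin1 from 4.08 to 2.87. They did not move one way, and time followed the slide. Of the 7 measured splicing factor genes listed for Miat, Ptbp1 passed in serum mice alone (adjusted p = 0.0456 by limma). That is 14.3% of the list against 8.94% of all probes. Binding of each factor to Miat was not examined, and Miat was not analysed here.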

How the data were processed

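Brain RNA from 31 mice (14 serum, 17 oleic acid) was measured on 1-colour Agilent arrays, 1 brain per array. Per the file headers, the deposited scanner files hold Cy3 spot intensities from Agilent Feature Extraction 10.5.1.1, background-subtracted and detrended within each array and not normalized between arrays, with a 0 or 1 flag saying if a spot stood well above its background. The deposited value table holds log2 values that share 1 distribution across arrays. How the authors made that table is not given in the sources used here, and it served as an alternative.

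From the intensities, log2 of the processed signal minus the array's 75th percentile was computed per probe, spots of a probe being averaged. Of 55681 probes, 35487 were kept, being measured on all 31 arrays and flagged above background throughout 1 or more groups. Group means of the 12 treatment and time groups were fitted with limma 3.58.1 in R 4.3.3 (lmFit and eBayes, 19 residual degrees of freedom), with Benjamini-Hochberg adjustment over all probes kept and a threshold of 0.05. The procedure was tested on simulated data.

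The members and the gene lists were chosen with earlier results of these data known. Values of every probe named for a listed gene are reported. The sequence of the upstream Meg3 probe is not reported here. A difference is given with its error where it is larger than its standard error, where the groups separated or as a mean over times, and otherwise by its range or the values of the arrays. From each related list the text names genes past a test (at most 4), otherwise the 3 brightest. Likeness is the 5 highest and 2 lowest Pearson r with the brightest probe, clone and Riken-type names passed over. The number of arrays limits the precision. The labels call each sample a brain and do not tie numbers across groups. Where mice were handled together, p-values measure only the spread between these samples. Same-numbered samples did not deviate together (14 pairs, r from -0.592 to 0.375, 3 over 0.1), so no pairing was assumed. Alternatives covered background correction, scaling, filters, slide, scan date, replicate number, the variance model, probe averaging and left-out arrays.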

Additional observations from a re-analysis of the deposited data

Results flagged for a closer look

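The middle Meg3 probe (A_52_P196568) had all oleic acid arrays below all serum arrays at 4 h, with a difference of -0.828 on the log2 scale, and at 24 h (-0.218), but above them at 18 h (0.551). The upstream Snhg11 probe (A_55_P2047809) had all oleic acid arrays below the serum arrays at 3 h (-0.380) and above them at 18 h (0.268). Each was picked out because the groups separated in opposite directions at different times. Separation was common among all probes, at 18% at 3 h, 18.3% at 4 h, 50.9% at 18 h and 28.3% at 24 h. The difference between those pairs of times was not tested. The test that the difference varied over the 5 times other than 1.5 h gave an adjusted p of 0.804 for each probe (limma).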

How the results depend on the processing

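The 9 counts of Malat1, Meg3 and Snhg11 probes past the test were 0 with the settings reported. For time in the serum mice the count was 1 with normexp background correction, quantile normalization, the deposited value table, a filter of 24 arrays above background, scan date as a block, a trended and robust variance model, the mean of a gene's probes, and without oleic acid 1 h replicate 3 and oleic acid 4 h replicate 2 together. The last, chosen after seeing the data as was leaving out the 1.5 h arrays, gave 2 for time in the oleic acid mice. Leaving out 1 array at a time gave 0 to 1 for each of these counts. In the first 7 of those settings the probe was Malat1 (adjusted p of 0.0307 to 0.04997), which had 0.101 with no filter, 0.148 with the slide as a random block and 0.0567 with the replicate block, and 0.0397 to 0.124 with 1 array left out. The replicate block, with no pairing of the mice behind it, left all 9 counts at 0. Directions reversed for Snhg11 downstream at 4 h (-0.0169 with median scaling, and -0.104 to 0.462 with 1 array left out), Snhg11 upstream at 18 h (-0.237 with the slide as a block), Meg3 downstream and Snhg11 downstream at 1 h (-0.00977 and -0.133 as means of a gene's probes), and Meg3 middle at 1 h (0.122 without both arrays, and -0.768 to 0.122 with 1 left out). The untested 1.5 h values of the upstream Meg3 probe and of the middle of Malat1 moved to 0.418 and -0.468 with the slide as a block, and the median of the 5′ end of Malat1 from 0.068 to -0.278 (-0.0299 with the slide as a random block, -0.00614 with median scaling, and -0.163 to 0.191 with 1 array left out). At 1.5 h the slide as a fixed block compares 1 array of each treatment, on the slide that they share. The cause of these shifts was not tested. Over all probes, counts for time ran from 152 (slide as a fixed block) to 6780 (without the 1.5 h arrays) in serum mice and from 41 (slide as a fixed block) to 3559 (without both arrays) in oleic acid mice. With 1 array left out they ran from 777 to 5549 and from 906 to 3547. For oleic acid against serum they reached, under settings other than leaving out 1 array, 0 at 1 h, 2 at 3 h, 4 at 4 h, 11 at 18 h, 114 at 24 h, 58 for the mean over times and 43 for the difference between them. With 1 array left out they reached 28 at 1 h, 12 at 3 h, 7 at 4 h, 2 at 18 h and 89 at 24 h.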
